A study of Mus musculus with 40 samples.

Results

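miR-101a-3p and miR-101b-3p are the mature guide strands of a pair of closely related mouse miRNA hairpins. They are 2 of the 1894 entries in the deposited table of miRNA counts, taken by name, and 1261 of the entries had a rounded count in any of the 40 libraries. The pair was chosen by its levels and its fold changes of IP over input in these same libraries. Its values in the comparisons of IP with input and between tissues are therefore given as a description with no p-value.

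Each tissue of the study (brown fat, liver, gastrocnemius muscle and hypothalamus) has 5 IP libraries and 5 input libraries. IP is the RNA caught on streptavidin after the thiol groups in it had been biotinylated, and input is the tissue's total small RNA before that step. All libraries of both kinds come from 10 male mice, 8 to 12 weeks old and fed standard chow, which carried Tg(CAG-GFP,-Uprt)985Cdoe/J and Tg(Ucp1-cre)1Evdr/J. They received 4-thiouracil (4TU) by intraperitoneal injection at 50 mg/kg, 4 times and 48 h apart. Cre under the Ucp1 promoter, which is active in brown fat cells, switches on UPRT, an enzyme that makes 4TU usable for RNA synthesis. The comparison of IP with input asks which miRNAs carry the label in brown fat and whether labelled miRNAs turn up elsewhere. The labels give no genotype for single mice, and no group here lacked Cre or 4TU. RNA that is caught without a label was therefore not measured apart from labelled RNA. Inputs were sequenced in pool 1 and IPs in pool 2, so pool and library type cannot be told apart.

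A miRNA guides Argonaute to messenger RNAs that pair with its seed, bases 2 to 8 from the 5′ end, and lowers their output. miR-101 is best known for acting on Ezh2, the methyltransferase of the Polycomb complex PRC2, and its loss in human tumours goes with high EZH2. In vertebrates the family is made from several hairpins in separate places of the genome, and the mouse has paralogues named with the letters a, b and c.

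The mature sequences are shown because the paralogues are told apart by very few bases, with bases 2 to 8 in capitals (RefSeq, GRCm38.p6).
mmu-miR-101a-3p: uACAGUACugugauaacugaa
mmu-miR-101b-3p: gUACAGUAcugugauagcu
mmu-miR-101c: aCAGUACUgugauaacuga
The miR-101a-3p sequence lies at chr4:101346957-101346977 on the minus strand, in a hairpin that is exonic in the lincRNA E130102H24Rik. The miR-101b-3p sequence lies at chr19:29135338-29135356 on the plus strand, in a hairpin that is intronic in Rcl1, a protein-coding gene for a nucleolar factor of ribosome biogenesis. The miR-101c sequence lies at chr9:3038680-3038698 on the minus strand, outside annotated genes.
RefSeq starts the mature miR-101b-3p 1 base earlier than miR-101a-3p, so its bases 2 to 8 are shifted by 1, and the miR-101a-3p seed lies at its bases 3 to 9. Lined up from the first base of miR-101a-3p, the stretch of the Mir101b hairpin differs from it by 1 substitution, A16G, in 21 bases. Below, the base that differs is in capitals, and positions count from the 5′ end of miR-101a-3p.
mmu-miR-101a-3p: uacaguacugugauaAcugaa
Mir101b hairpin, same stretch: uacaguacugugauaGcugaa
The first 15 bases are the same in both, so a read must reach base 16 to tell them apart. miR-101c lies wholly inside miR-101a-3p, at its bases 2 to 20. In the 20 inputs its count was 0.18% to 0.37% of that of miR-101a-3p, and how reads were divided between these entries is not given in the sources used here. The deposited values are estimated counts, of which 0% were whole within 0.001 for miR-101c, 2.5% for miR-101a-3p and 15% for miR-101b-3p, against 18.9% of all positive values. Reads of miR-101c and miR-101a-3p cannot be told apart here, so the values of miR-101c are given with no p-value and are no second measurement.

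Total counts ran from 11913 to 921277 in the IPs (median 222612) and from 152980 to 5562423 in the inputs (median 1284075). Marker miRNAs put most libraries with their tissue: the brown fat markers miR-193b-3p, miR-365-3p, miR-378a-3p and miR-455-5p summed to 78977 CPM (counts per 1000000 counted miRNA reads) or more in every brown fat library and to 19066 CPM or less in all others. In brown fat most of that sum was miR-378a-3p, with means of 127137 CPM in the IPs and 112581 CPM in the inputs. The other brown fat markers had lower means in the brown fat IPs than in the inputs. These were 62.5 against 506.6 CPM for miR-193b-3p, 233.8 against 992.8 CPM for miR-365-3p and 143.9 against 942.8 CPM for miR-455-5p. Some libraries held markers of another tissue or few of their own. All brown fat libraries held the muscle markers miR-1a-3p, miR-133a-3p and miR-206-3p, which summed to 50618 to 256704 CPM in the IPs and 69011 to 293092 CPM in the inputs. The source of these reads was not tested, so they are not read as muscle tissue in the samples. Hypothalamus input replicate 4, the input with the fewest counts, had 188939.7 CPM of muscle markers, 22898 CPM of liver markers and 11518 CPM of brown fat markers. Its brain markers (miR-124-3p, miR-9-5p and miR-128-3p) summed to 47987 CPM and those of hypothalamus input replicate 5 to 65823 CPM, against 183263 CPM or more in the other hypothalamus inputs. Liver IP replicate 4, the library with the fewest counts of all, had 16369 CPM of muscle markers. The muscle inputs held 14740 to 19066 CPM of brown fat markers, mostly miR-378a-3p, at a mean of 16122 CPM. The fitted fold changes and log2 ratios of the paralogues that use hypothalamus input replicate 4 or liver IP replicate 4 are also given without it.

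In the inputs the paralogues had different tissue profiles, and the liver was where they parted. miR-101b-3p was highest in liver, at 22627 ± 3205 CPM (SD, n = 5), or 2.26% of all counted miRNA reads, and stood at rank 5 among all entries there. miR-101a-3p had its 2 highest means in hypothalamus, at 13032 ± 2331 CPM, and brown fat, at 12770.3 ± 5881 CPM. On the CPM scale muscle was lowest for both.

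The single inputs show how firm that order is against the spread between libraries, on the CPM scale only. In liver miR-101b-3p had 27312, 19790.3, 22150.5, 19715 and 24168 CPM, 4.61 times the mean of the next tissue, hypothalamus, and the ranges did not overlap. In hypothalamus it had 5696, 4562, 5339, 4419 and 4501 CPM, and in brown fat 2733, 3027, 3465, 3355 and 5106 CPM. Those 2 ranges overlapped, so their order is not set by the spread. In muscle it had 1203, 1352, 931, 1308 and 989.8 CPM, all below every brown fat input.

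miR-101a-3p had 15188, 11912, 14893, 9563 and 13605 CPM in the hypothalamus inputs, where 9563 CPM is from the library with muscle and liver markers. The brown fat inputs had 7736, 8966, 12379, 12105 and 22666 CPM, and the liver inputs 12236, 5266, 6737, 8905 and 6442 CPM. These 3 tissues overlapped in the order hypothalamus, brown fat, liver, with means of 13032, 12770.3 and 7917 CPM. The muscle inputs had 3177, 3551, 2229, 3199 and 2394 CPM, all below every liver input. A bulk level cannot tell fewer cells of a type from less of the miRNA per cell.

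The 20 inputs were also fitted with edgeR, scaled by the trimmed mean of M values (TMM), with each tissue set against the mean of the other tissues. Liver was then highest for both, and the order of the other tissues was not that of the CPM values: muscle came next for both, and the lowest was hypothalamus for miR-101a-3p and brown fat for miR-101b-3p. For miR-101b-3p the log2 fold change was 3.77 (SE 0.17) for liver, the 16th highest of 444 miRNAs, and -0.82 (SE 0.20) in muscle, -1.40 (SE 0.20) in hypothalamus and -1.56 (SE 0.21) in brown fat. For miR-101a-3p it was 0.73 (SE 0.23) in liver, -0.06 (SE 0.24) in muscle, -0.14 (SE 0.24) in brown fat and -0.53 (SE 0.24) in hypothalamus. The median of all miRNAs tested was -0.48 in liver, -0.42 in muscle, -0.18 in brown fat and 0.60 in hypothalamus. Relative to it, miR-101b-3p stood at 4.26 in liver and miR-101a-3p at 1.21. In hypothalamus they stood at -1.99 and -1.13, the lowest of the tissues for both. With single libraries left out, the fitted values of miR-101b-3p ran from -1.61 to -1.45 in brown fat and from -1.51 to -1.35 in hypothalamus. The order of these tissues is therefore not set for it. Scaling by total count moved the medians of all miRNAs by up to 1.83. With it both paralogues in hypothalamus had the opposite sign (0.97 for miR-101a-3p and 0.12 for miR-101b-3p). miR-101a-3p then stood at 0.93 in brown fat, also with the opposite sign, 0.011 in liver and -1.91 in muscle, and miR-101b-3p at -0.51, 3.06 and -2.66. With scaling by the median of ratios miR-101a-3p in muscle stood at 0.16. Relative to the median of all miRNAs they stayed at -1.17 and -2.03 in hypothalamus. Without hypothalamus input replicate 4 the values of miR-101a-3p were 0.71 in liver, -0.07 in muscle, -0.16 in brown fat and -0.48 in hypothalamus, and those of miR-101b-3p were 3.78, -0.81, -1.55 and -1.42. The brown fat and muscle values of miR-101a-3p lay near 0 and their sign was not stable: they ran from -0.32 to 0.002 and from -0.18 to 0.05 with single libraries left out. The sign turned in brown fat without brown fat input replicate 2, and in muscle without brown fat input replicate 5, liver input replicate 1 or muscle input replicate 5.

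The other strand of the miR-101b hairpin is a separate entry that did not choose the pair, and it too was highest in liver. The 5p strand is the passenger, which is mostly degraded once the guide is loaded.
mmu-miR-101a-5p: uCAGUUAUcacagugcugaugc
mmu-miR-101b-5p: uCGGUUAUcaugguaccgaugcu
miR-101b-5p had 14, 15, 27, 7 and 17 counts in the liver inputs, or 16.8 ± 6.48 CPM (SD, n = 5). It had at most 6 counts in any of the other 15 inputs. Its log2 fold change in liver against the other tissues was 5.54 (SE 0.38). It passed the filter for low counts only through the liver inputs, where it is high, so no p-value is given for liver. The means that muscle, hypothalamus and brown fat are set against include liver, so this limit holds for them too and no p-value is given. In muscle the log2 fold change was -2.90 (SE 0.72), with 2 counts in all 5 inputs together. In hypothalamus it was -1.40 (SE 0.63), and -1.35 without hypothalamus input replicate 4. That value was -0.069 with total count as the scaling, -1.31 with no filter and -0.95 with mouse as a block. In brown fat the log2 fold change was -1.24 (SE 0.66). Among all miRNAs tested, 22.7% were called higher and 39% lower in liver, and 22.3% and 38.3% in muscle.

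miR-101a-5p was too low to be tested in any comparison, with 15 to 50 counts over the 5 inputs of a tissue. The 5p strand made up 0.0082% to 0.075% of the counts of both strands in the inputs of either hairpin. miR-101c, whose sequence is contained in miR-101a-3p, averaged 37.97 ± 19.4 CPM in brown fat, 25.1 ± 7.37 CPM in liver, 7.30 ± 1.23 CPM in muscle and 27.9 ± 3.88 CPM in hypothalamus inputs (SD, n = 5 each). In liver against the other tissues its log2 fold change was 1.03 (SE 0.25), and 0.34 with total count. In hypothalamus it was -0.94 (SE 0.27), with the opposite sign, 0.53, under total count.

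**Figure D1:**
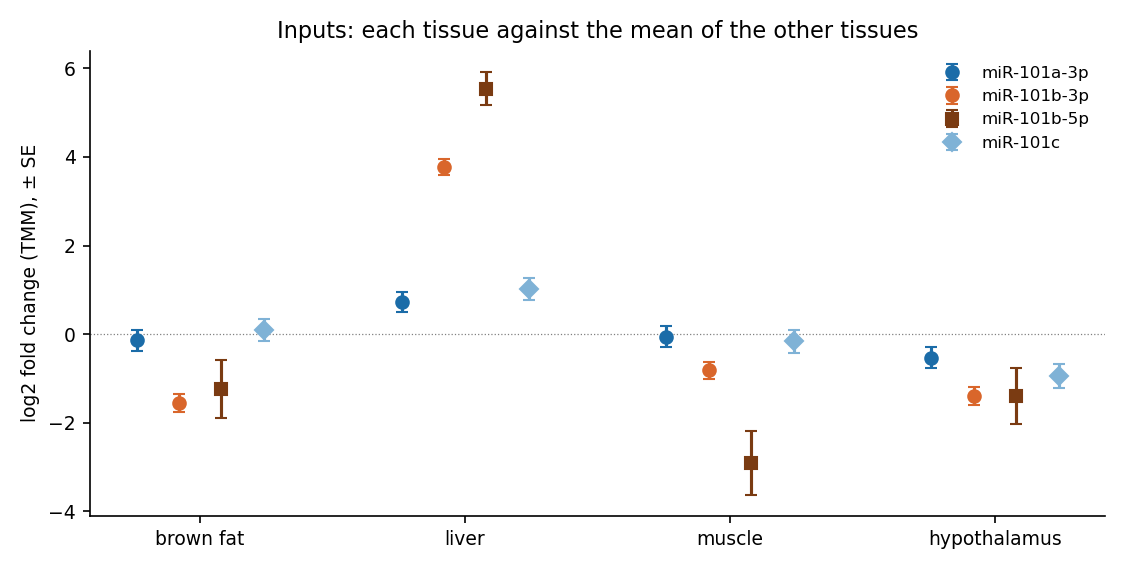
Log2 fold change of 4 entries of the miR-101 family in the 20 inputs, each tissue (horizontal axis) against the mean of the other tissues, with bars for ± SE on the TMM scale. In liver miR-101b-3p stands at 3.77 and miR-101b-5p at 5.54, against 0.73 for miR-101a-3p and 1.03 for miR-101c.

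Both paralogues were lower in the IP than in the input of all 4 tissues, and no IP library reached the level of any input library of its tissue. On the CPM scale the gap was smallest in brown fat and largest in hypothalamus, and in each tissue it was larger for miR-101a-3p than for miR-101b-3p. On that scale miR-101a-3p was 33.8 times lower in the IP of brown fat, 57.5 times in liver, 178 times in muscle and 289 times in hypothalamus. miR-101b-3p was 7.92, 21.2, 38.9 and 90.4 times lower in the same order.

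In brown fat miR-101a-3p had 343, 698, 257, 304 and 287 CPM in the IPs, or 378 ± 181 CPM, against 12770.3 ± 5881 CPM in the inputs (SD, n = 5 each). IP replicate 2 stood above the other IPs, and it also had the lowest level of muscle markers among them (50618 CPM). Their part in its value was not tested. miR-101b-3p had 479, 810.4, 257, 347 and 341 CPM in the IPs, or 447 ± 218 CPM, against 3537 ± 923 CPM in the inputs (SD, n = 5 each). The same IP replicate 2 was the highest, and the lowest input, 2733 CPM, was still above it.

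In liver miR-101a-3p had 172, 48.0, 266, 168 and 33.7 CPM in the IPs, or 138 ± 96.7 CPM, against 7917 ± 2749 CPM in the inputs (SD, n = 5 each). The 168 CPM of IP replicate 4 rest on 2 counts, with an exact 95% interval of 20.3 to 606 CPM. miR-101b-3p had 1371, 427, 2029, 839 and 665 CPM in the IPs, or 1066 ± 641 CPM, against 22627 ± 3205 CPM in the inputs (SD, n = 5 each). Liver was the tissue with the highest miR-101b-3p in the IP as in the input, though its IP range overlapped that of brown fat.

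In muscle the IPs held 2 to 14 counts of miR-101a-3p each, which gave 15.2, 8.28, 5.76, 34.4 and 18.2 CPM, or 16.4 ± 11.3 CPM, against 2910.0 ± 569 CPM in the inputs (SD, n = 5 each). They held 4 to 33 counts of miR-101b-3p, which gave 35.8, 24.8, 17.3, 34.4 and 36.4 CPM, or 29.7 ± 8.39 CPM, against 1157 ± 189 CPM in the inputs (SD, n = 5 each). With so few counts the order of the muscle IPs among themselves cannot be read. Both paralogues had their lowest IP means in this tissue.

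In hypothalamus miR-101a-3p had 26.1, 19.9, 102, 29.5 and 47.9 CPM in the IPs, or 45.1 ± 33.5 CPM, against 13032 ± 2331 CPM in the inputs (SD, n = 5 each). miR-101b-3p had 47.9, 59.7, 121, 0 and 43.1 CPM in the IPs, or 54.3 ± 43.4 CPM, against 4904 ± 577 CPM in the inputs (SD, n = 5 each). IP replicate 3 was the highest for both, with 22 and 26 counts. IP replicate 4 had a rounded count of 0 for miR-101b-3p, which allows a level of up to 44.3 CPM at 3 counts. In the IP the hypothalamus range of miR-101a-3p lay below every brown fat library, while in the inputs the ranges of these tissues overlapped.

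**Figure D2:**
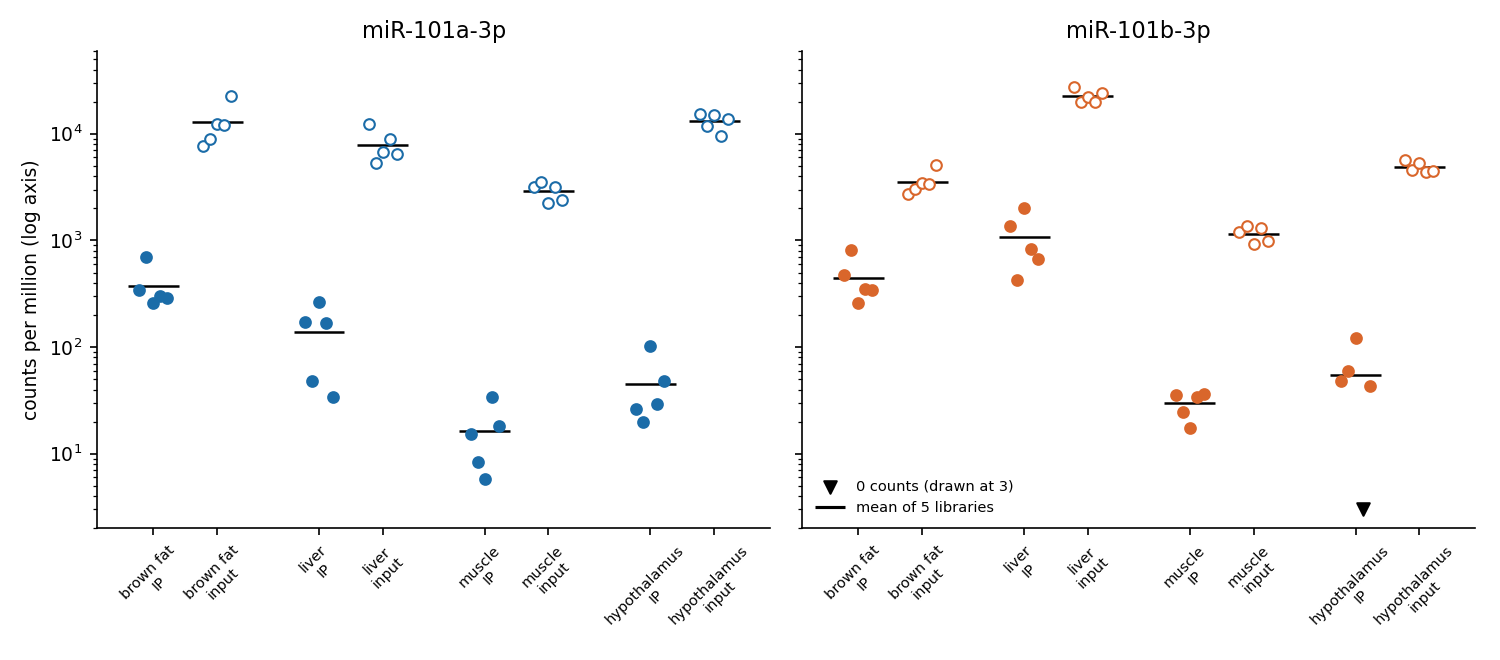
Level of miR-101a-3p (left) and miR-101b-3p (right) in each of the 40 libraries, in CPM on a log axis, with IP (filled) left of input (open) in each tissue and a line at the mean of 5 libraries. No IP overlaps the inputs of its tissue, and the 1 hypothalamus IP with 0 counts of miR-101b-3p is drawn as a triangle.

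In 19 cases an IP and an input of a tissue came from the same mouse, and both paralogues were lower in the IP in 19 of these 19. The input of the same mouse was 12.9 to 598 times the IP for miR-101a-3p, with a median of 132. For miR-101b-3p it was 3.74 to 119 times the IP, with a median of 34.97 over the pairs with a count in the IP. By tissue the median for miR-101a-3p was 31.2 in brown fat (4 pairs), 70.9 in liver, 209 in muscle and 324 in hypothalamus (5 pairs each).

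In the edgeR fit across all miRNAs, the log2 fold change of miR-101a-3p, IP over input, was -4.01 (SE 0.30) in brown fat, -4.29 (SE 0.54) in liver, -6.59 (SE 0.44) in muscle and -7.40 (SE 0.55) in hypothalamus. For miR-101b-3p it was -1.94 (SE 0.26), -2.85 (SE 0.51), -4.26 (SE 0.39) and -5.67 (SE 0.65) in the same order. Lower values in the IP were common: the median of all miRNAs tested was -0.34, -0.78, -1.41 and -1.04. In these fits 43.3% of miRNAs were called lower in brown fat, 46.0% in liver, 56.3% in muscle and 47.3% in hypothalamus. Counted from the lowest, miR-101a-3p stood at 41 of 305 miRNAs in brown fat, 29 of 200 in liver, 47 of 268 in muscle and 8 of 273 in hypothalamus. miR-101b-3p stood at 89, 45, 68 and 19. Hypothalamus was thus the tissue in which both stood nearest the low end. Relative to the median of all miRNAs, miR-101a-3p was at -3.67 in brown fat and -3.51 in liver. With single libraries left out these ran from -3.76 to -3.46 and from -4.06 to -3.05, so their order on this scale is not set. For miR-101b-3p brown fat had the smallest gap on it, at -1.60 against -2.07 in liver. Without hypothalamus input replicate 4 the log2 fold changes of miR-101a-3p and miR-101b-3p there were -7.40 and -5.61. Those in liver were -4.12 and -2.61 without liver IP replicate 4. With total count as the scaling all 8 values were lower, at -5.08, -5.88, -7.53 and -8.12 for miR-101a-3p and -2.99, -4.39, -5.30 and -6.43 for miR-101b-3p. Relative to the median of all miRNAs the value that moved most was that of miR-101b-3p in muscle, which was -3.01 with total count and -2.85 with TMM.

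**Figure D3:**
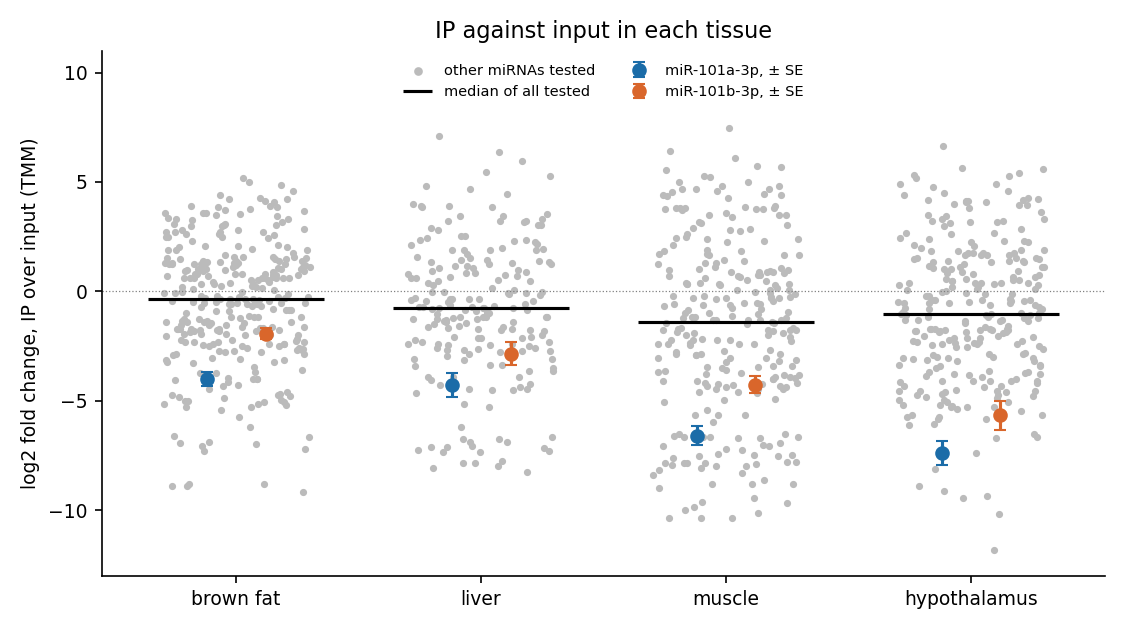
Log2 fold change of IP over input for all miRNAs tested in each tissue (grey points, black line at the median) with miR-101a-3p and miR-101b-3p marked with ± SE. miR-101a-3p lies below miR-101b-3p in every tissue, at -4.01 against -1.94 in brown fat and -7.40 against -5.67 in hypothalamus.

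Set against brown fat in 1 fit, the IP change in muscle differed by -2.32 (SE 0.48) for miR-101a-3p and by -2.09 (SE 0.43) for miR-101b-3p, where the median of all miRNAs differed by -0.53. In liver the difference was -0.60 (SE 0.60) and -1.26 (SE 0.59), beside a median of -0.85, so that miR-101a-3p was at 0.26 and miR-101b-3p at -0.41 relative to other miRNAs. Without liver IP replicate 4 the differences were -0.28 and -0.84. With single libraries left out they ran from -1.26 to 0.03, with the sign turned without liver input replicate 1, and from -1.69 to -0.70. Relative to the median they ran from -0.17 to 0.64 and from -0.61 to -0.19, so no direction is read for miR-101a-3p in liver against brown fat. In hypothalamus the difference was -1.55 (SE 0.53) and -1.90 (SE 0.62), beside a median of 1.30 for all miRNAs. Without hypothalamus input replicate 4 they were -4.69 and -4.99. Leaving out any one of 17 of the 20 libraries moved them as far, to between -5.21 and -4.40 for miR-101a-3p and between -5.52 and -4.68 for miR-101b-3p. The exceptions were brown fat input replicate 4, hypothalamus input replicate 3 and brown fat IP replicate 4, so the size of these 2 values is not firm. Relative to the median they were -2.86 for miR-101a-3p and -3.20 for miR-101b-3p, and ran from -3.38 to -2.78 and from -3.69 to -3.11.

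The ratio of the paralogues within a library needs no scaling between libraries, and it was lower in the IP than in the input in every tissue. In brown fat miR-101a-3p made up 41.7%, 46.3%, 50.0%, 46.7% and 45.7% of the counts of both in the IPs, against 73.9%, 74.8%, 78.1%, 78.3% and 81.6% in the inputs. In liver it made up 11.2%, 10.1%, 11.6%, 16.7% and 4.83% in the IPs, against 30.9%, 21.02%, 23.3%, 31.1% and 21.04% in the inputs. No IP reached an input in either tissue, although the 16.7% of liver IP replicate 4 rest on 12 counts, with an exact 95% interval of 2.09% to 48.4%.

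Libraries with under 10 counts of both paralogues together were left out of the means of this ratio, which removed 2 muscle IPs and 2 hypothalamus IPs. The remaining muscle IPs had 29.8%, 25% and 50.0%, against 72.5%, 72.4%, 70.6%, 71.0% and 70.7% in the inputs. The remaining hypothalamus IPs had 35.3%, 45.8% and 52.6%, against 72.7%, 72.3%, 73.6%, 68.4% and 75.1% in the inputs. Of the 4 libraries left out, 3 had 25% to 33.3%, and the hypothalamus IP with 0 counts of miR-101b-3p had 2 of miR-101a-3p. As a log2 ratio of miR-101a-3p to miR-101b-3p, the means were -0.23 ± 0.17 in IP and 1.78 ± 0.26 in input for brown fat, and -3.14 ± 0.72 in IP and -1.57 ± 0.39 in input for liver (SD, n = 5 each). They were -0.94 ± 0.83 in IP (SD, n = 3) and 1.32 ± 0.07 in input (SD, n = 5) for muscle. They were -0.32 ± 0.52 in IP (SD, n = 3) and 1.40 ± 0.18 in input (SD, n = 5) for hypothalamus. Without liver IP replicate 4 the liver IP mean was -3.34, and without hypothalamus input replicate 4 the hypothalamus input mean was 1.47. The means over 3 IPs rest on single libraries. The muscle mean was -1.41 without IP replicate 4 and -0.62 without IP replicate 2, and the hypothalamus mean was -0.56 without IP replicate 5 and -0.04 without IP replicate 1. The shift of the ratio, IP minus input, was -2.01 in brown fat, -1.57 in liver, -2.26 in muscle and -1.72 in hypothalamus. Input spread was narrow, from 70.6% to 72.5% in muscle, while brown fat, muscle and hypothalamus inputs all lay between 68.4% and 81.6%.

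**Figure D4:**
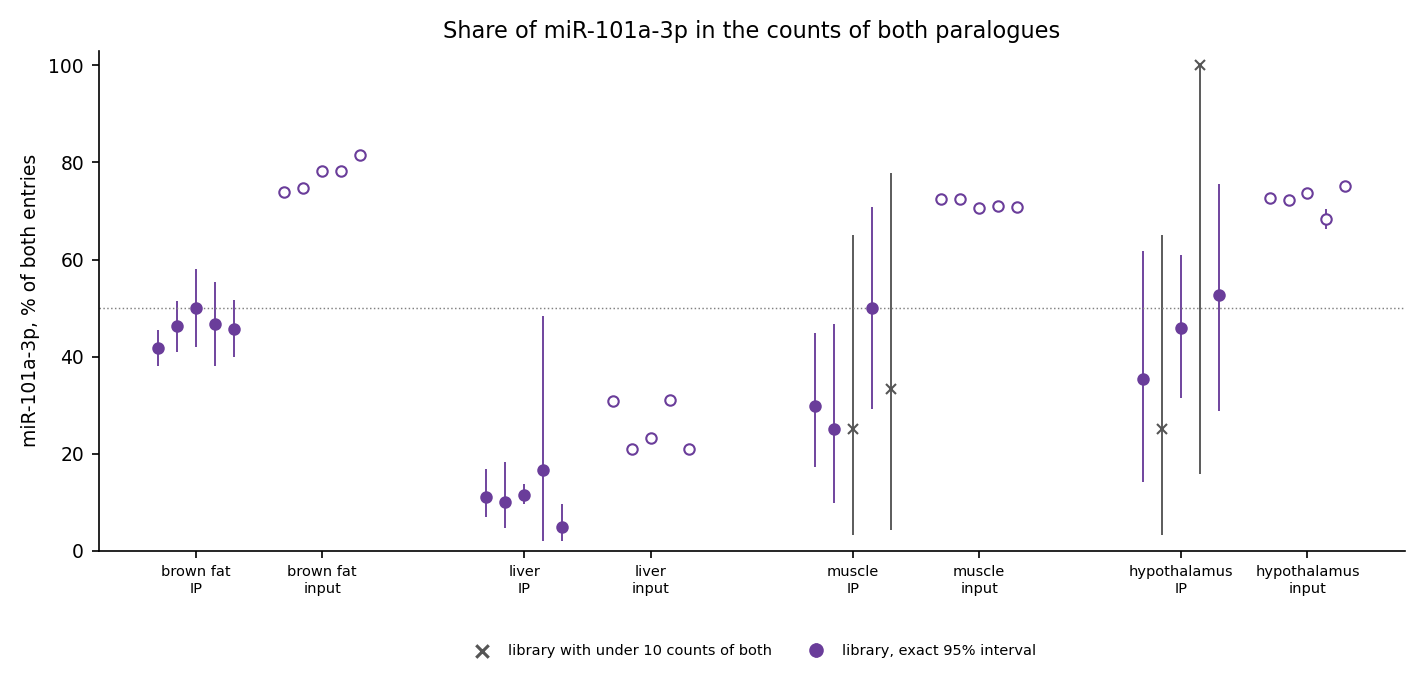
Share of miR-101a-3p in the counts of both paralogues in each library, in percent, with exact 95% intervals for counting error, IP (filled) left of input (open). Crosses are the 4 IPs with under 10 counts. In brown fat the IPs sit between 41.7% and 50.0% and the inputs between 73.9% and 81.6%.

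The other strands and miR-101c were near the limit of counting in the IPs. miR-101c had 4 counts over the 5 IPs of brown fat, 1 in liver and 0 in muscle and hypothalamus, against 267, 114, 154 and 271 over the inputs. Its log2 fold change in brown fat was -3.06 (SE 0.56). The 0 counts in muscle allow up to 1.22 CPM at 3 counts over the group, and those in hypothalamus up to 3.65 CPM. miR-101a-5p had 17 counts in the brown fat IPs, against 47 in the inputs, and miR-101b-5p had 9 counts in those IPs, against 8 in the inputs. The brown fat IPs held 2036883 counts in all and the inputs 7214693, so these counts are not on one scale. In CPM the brown fat means were 9.638 ± 9.825 in IP and 6.876 ± 3.96 in input for miR-101a-5p. They were 5.232 ± 4.746 and 1.2045 ± 0.919 for miR-101b-5p (SD, n = 5 each). In the liver IPs miR-101b-5p had 1, 0, 16, 0 and 8 counts, against 14, 15, 27, 7 and 17 in the inputs. Its liver means were 16.73 ± 19.15 CPM in IP and 16.79 ± 6.48 CPM in input. With so few counts no direction is read. The 5p share of both strands was 2.30% in IP and 0.053% in input for the miR-101a hairpin in brown fat. For the miR-101b hairpin in liver it was 1.92% in IP and 0.075% in input. In the other IPs with a 5p count it was 1.27% for miR-101a in liver, 0.996% for miR-101b in brown fat and 1.89%, from 1 count, for miR-101b in hypothalamus. It was 0% in the muscle IPs for both hairpins and in the hypothalamus IPs for miR-101a, where 3 counts would make 8.33%, 4.11% and 7.14%, so those shares cannot be set against the inputs. None of the 5p entries had enough counts to be tested in an IP comparison.

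Among the entries with a mature sequence, 2 others share bases 2 to 7 with a member, and they are shown for that stretch with bases 2 to 8 in capitals.
mmu-miR-144-3p: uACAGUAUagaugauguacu
mmu-miR-582-5p: aUACAGUUguucaaccaguuac
miR-144-3p, a miRNA of red blood cells made beside miR-451a, shares them with miR-101a-3p, and miR-582-5p shares them with miR-101b-3p. Neither had a rounded count in any of the 20 IPs, which allows at 3 counts up to 1.47 CPM over the brown fat IPs and up to 3.65 CPM over the hypothalamus IPs. In the inputs miR-144-3p had 377 counts in brown fat, 28 in liver, 110 in muscle and 11 in hypothalamus. Against the other tissues it rose in brown fat by 2.87 (log2, SE 0.41, edgeR adjusted p = 4.07e-06) and fell in hypothalamus by 4.64 (SE 0.66, edgeR adjusted p = 1.36e-06). Its muscle value was 1.32 (SE 0.44, edgeR adjusted p = 0.014), and that call was lost with mouse as a block (edgeR adjusted p = 0.072) and without muscle input replicate 5 (0.91, edgeR adjusted p = 0.11). Under total count the muscle value had the opposite sign, -0.49. miR-582-5p had 163 counts in the hypothalamus inputs and 6 in the other 15 inputs. Its log2 fold change in hypothalamus was 5.59 (SE 0.60). It passed the filter for low counts only through the hypothalamus inputs, where it is high, so no p-value is given for it. In brown fat, 30.6% of miRNAs were called higher and 34.7% lower, and in hypothalamus 50.7% and 34%. The red blood cell markers miR-451a and miR-144-3p together summed to 53.7 to 740.1 CPM in the brown fat inputs and to no more than 42.6 CPM in the other inputs, and the part of blood in the miR-144-3p values was not tested. The mean of miR-144-3p in the brown fat inputs was 57.3 ± 60.3 CPM (SD, n = 5), against 1157 CPM or more for the means of the paralogues in the inputs of every tissue.

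Of 6 other miRNAs known from general knowledge to act on Ezh2, those tested were split in the IP. In brown fat 5 were tested, with 2 higher and 3 lower, beside 36.7% of all miRNAs called higher and 43.3% lower. In liver 3 were tested, with 1 higher and 2 lower (28.5% and 46.0% of all), and in muscle 4, with 2 higher and 2 lower (28.7% and 56.3% of all). In hypothalamus 5 were tested, with 1 higher and 4 lower (28.2% and 47.3% of all). The lower ones include entries that passed the filter for low counts only through the inputs, miR-124-3p in brown fat and miR-138-5p in hypothalamus. With so few tested, nothing is read from these counts against those shares. Their median log2 fold change was -2.41, -2.67, -0.89 and -2.12 in brown fat, liver, muscle and hypothalamus.

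Within that list the members differed in direction. miR-26a-5p, an abundant miRNA of most tissues, fell in all 4 tissues, by 2.67 on the log2 scale in brown fat (SE 0.33, edgeR adjusted p = 1.37e-06) and by 3.96 in muscle (SE 0.35, edgeR adjusted p = 3.07e-10). Its relative miR-26b-5p also fell in all 4, by 2.12 (hypothalamus) to 2.88 (muscle). miR-98-5p, a member of the let-7 family, rose in all 4, by 2.36 (liver) to 3.48 (muscle), and in liver its call was lost with total count (0.76, edgeR adjusted p = 0.073). It averaged 2052 ± 430 CPM in IP and 517 ± 94.9 CPM in input of brown fat (SD, n = 5 each). miR-124-3p, a miRNA of neurons, fell by 2.44 in hypothalamus (SE 0.55, edgeR adjusted p = 0.0017) and had 0 counts in the brown fat IPs, against 160 in the inputs. The log2 fold change of miR-138-5p in hypothalamus was -1.71 (SE 0.55). It passed the filter for low counts there only through the inputs, where its level is higher, so no p-value is given for it. The calls of miR-214-3p, at 0.75 in brown fat (edgeR adjusted p = 0.047) and 1.10 in muscle (edgeR adjusted p = 0.0044), were lost with scaling by the median of ratios (0.42 and 0.55) and with total count (-0.35 and 0.12). The brown fat call was also lost without any one of 7 of its 10 libraries. In the inputs all 6 were tested, with 3 higher and 3 lower in hypothalamus (50.7% and 34% of all) and 2 higher and 3 lower in brown fat (30.6% and 34.7% of all). There were 2 in each direction in liver (22.7% and 39% of all) and in muscle (22.3% and 38.3% of all). With mouse as a block the lower calls of miR-98-5p in brown fat (-0.36, edgeR adjusted p = 0.088) and miR-138-5p in muscle (-0.80, edgeR adjusted p = 0.14) were lost, the first also without brown fat input replicate 3 (edgeR adjusted p = 0.069).

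Both mature sequences are poor in G and C, which the choice of the pair did not use. miR-101a-3p has 33.3% GC and miR-101b-3p 42.1%, against a median of 50.0% over entries with a count, and each holds 6 U, the base in whose place 4TU is built in. One mature sequence was found for 1610 of the 1894 entries. In brown fat the median log2 fold change of IP over input was -2.41 for the 55 miRNAs under 40% GC, -1.18 for the 100 from 40% to under 50%, and 0.79 for the 111 at 50% and over. From low to high GC, the medians of these classes were -2.59, -1.24 and 0.77 for liver, then -4.36, -2.02 and 0.34 for muscle, and -2.70, -1.86 and 0.57 for hypothalamus. In every tissue the class of miR-101a-3p had the lowest median and that of miR-101b-3p the next, and both members lay below their own class's median. The class of miR-101b-3p rests on its annotated 19 bases, since over the 21 bases shown above it differs from miR-101a-3p by 1 base. Against the class under 40% it would lie above the median in brown fat (-1.94 against -2.41) and muscle (-4.26 against -4.36). In liver (-2.85 against -2.59) and hypothalamus (-5.67 against -2.70) it would lie below. In hypothalamus 4 of 44 miRNAs of its class stood at or below miR-101a-3p, itself included, against 19 of 55 in brown fat.

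Across miRNAs, which are not independent replicates and share libraries, Spearman's rho of GC with the fold change was 0.39 in brown fat (n = 266), 0.40 in liver (n = 168), 0.35 in muscle (n = 231) and 0.43 in hypothalamus (n = 238). For the number of U it was 0.05, 0.15, 0.12 and -0.04. Among miRNAs that also hold 6 U, the median fold change was -1.27 in brown fat (n = 67), -1.79 in liver (n = 38), -3.08 in muscle (n = 54) and -2.14 in hypothalamus (n = 55). Both members were below these medians in all 4 tissues. The part of base composition in the members' values was not tested.

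**Figure D5:**
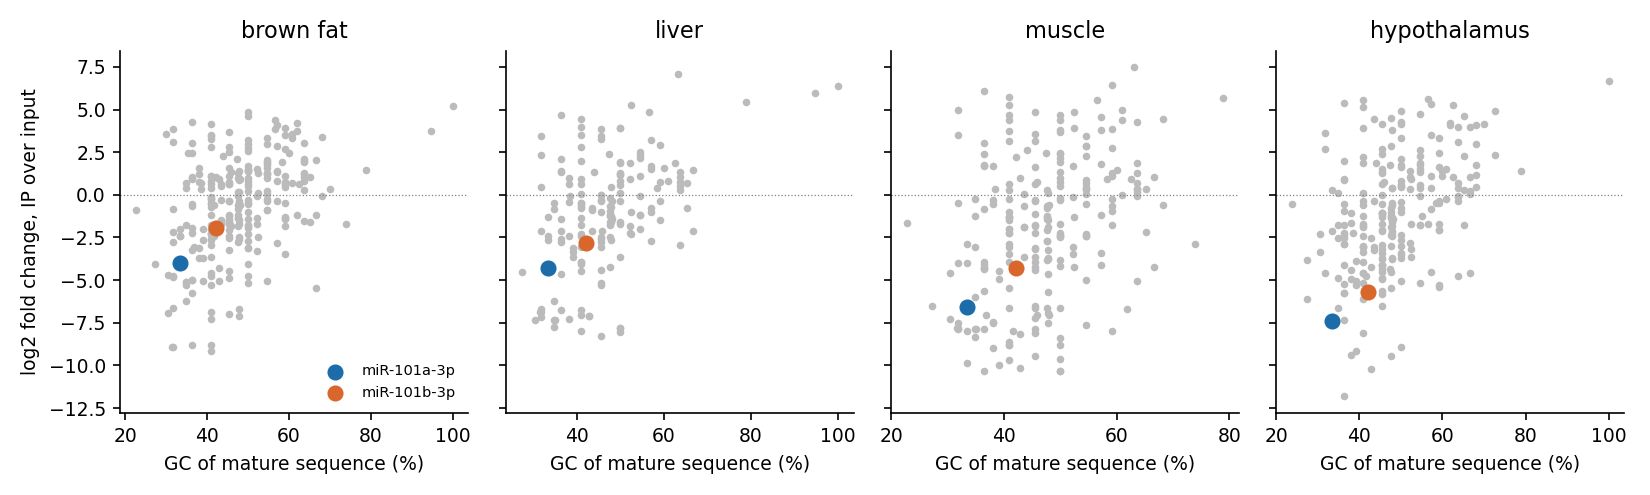
GC content of the mature sequence (horizontal axis, percent) against the log2 fold change of IP over input (vertical axis) for the miRNAs tested in each tissue, 1 panel a tissue. Points under 40% GC centre lower than those at 50% and over, with medians of -2.41 and 0.79 in brown fat, and miR-101a-3p (33.3% GC) lies below miR-101b-3p (42.1% GC) in every panel.

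The entries whose levels ran most like the mean of the pair over the 40 libraries, by Pearson's r of log2(CPM + 1) among 182 entries with a mean of at least 100 CPM, were miR-21a-5p (r = 0.92), miR-30a-5p (0.91), miR-16-5p (0.90), miR-27b-3p (0.89) and miR-194-5p (0.88). All 5 were lower in the IP in all 4 tissues, from -2.24 in brown fat to -5.76 in hypothalamus for miR-21a-5p and from -0.85 to -2.38 for miR-27b-3p. The points share the split into IP and input, and over the 20 inputs alone r was 0.71, 0.46, 0.41, 0.60 and 0.87 in the same order. miR-194-5p, a miRNA of liver and gut, depended on the pseudocount, and with 10 in place of 1 it stood at rank 23 (r = 0.84) and miR-21a-5p at rank 4. The paralogues themselves had r = 0.87 with each other over the 40 libraries and 0.50 over the 20 inputs.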

How the data were processed

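Small RNA of 4 mouse tissues was sequenced as IP and input, 40 libraries in 8 groups of 5, with groups, mice and pools taken from the labels. The authors deposited 1 table of expected counts (estimated counts) per mature miRNA, made by read counting and not normalized. The submitters' processing notes name fastp, STAR, featureCounts and the build mm10. For versions and the handling of reads with several matches, the sources used here are silent. No column was left without a sample.

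Counts were rounded, and library totals moved by no more than 0.13%. In R 4.3.3, edgeR 4.0.16 (quasi-likelihood, filterByExpr by group, TMM, two-sided, Benjamini-Hochberg adjusted p under 0.05) was fitted on the whole table, with DESeq2 1.42.0 as an alternative. The code was also run on simulated counts with as many miRNAs raised as lowered, which cannot show whether the scaling is right for these data. Each IP comparison used its 10 libraries, the tissue contrasts the 20 inputs, and differences between tissues 20 libraries. The SE of an edgeR value was worked back from its test, as the size of the log2 fold change over the square root of F. Intervals are exact at 95%, and with floors (3 counts) they cover counting error only, not the copying of reads by PCR. Replicates of a group come from different mice.

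The members and lists were chosen with earlier results of these data known. Named entries are the members, other miR-101 entries, those sharing bases 2 to 7, the Ezh2 list, and the 5 most alike. By the labels, 19 pairs of IP and input are each from 1 mouse (brown fat replicate 5 joins different mice). After group means were removed, Pearson's r within pairs lay between -0.13 and 0.69 (median 0.17), over 0.1 in 12. Other tissue contrasts also share mice.

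Alternatives were median-of-ratios (RLE) or total count scaling, other filters, DESeq2, 1 fit of all libraries, a mouse block, summed paralogues and leaving out each library.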

Additional observations from a re-analysis of the deposited data

Results flagged for a closer look

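The level of miR-101a-3p in brown fat IP replicate 2 was 697.6 CPM, far from the next of its group at 342.7 CPM, a gap of 0.81 of the group's range. It was the 1 flag among 22 groups of 4 or 5 values looked at in this way, and chance flags about 1 in 20. The same library was highest for miR-101b-3p, at 810.4 CPM, and lowest in muscle markers, at 50618 CPM. Without it, as without any other single library, the fold change of miR-101a-3p in brown fat stayed between -4.14 and -3.85.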

How the results depend on the processing

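The 8 values of IP over input of the pair stayed negative under every alternative run. With total count they were -5.08, -5.88, -7.53 and -8.12 for miR-101a-3p (brown fat, liver, muscle, hypothalamus) and -2.99, -4.39 and -5.30 for miR-101b-3p (brown fat, liver, muscle), since the median of all miRNAs moved with them. Without a filter they were -4.43 (brown fat) and -7.46 (muscle) for miR-101a-3p, and -2.36 and -5.13 for miR-101b-3p. With a minimum mean of 10 CPM they were -5.41 and -3.95 in liver. With both paralogues summed, the sum was at -3.23 in brown fat, -3.13 in liver and -5.51 in muscle. In the inputs, total count gave 0.93, 0.011, -1.91 and 0.97 for miR-101a-3p (brown fat, liver, muscle, hypothalamus) and -0.51, 3.06, -2.66 and 0.12 for miR-101b-3p. Both hypothalamus signs turned, as did that of miR-101a-3p in brown fat. The summed paralogues gave -0.75, 2.23, -0.50 and -0.98 for brown fat, liver, muscle and hypothalamus. The difference of hypothalamus minus brown fat for miR-101a-3p was -2.71 with the median of ratios, -3.02 with total count and -3.05 with all 40 libraries in 1 fit. With single libraries left out it ran from -5.21 to -1.48 for miR-101a-3p and from -5.52 to -1.81 for miR-101b-3p. In liver, IP over input for miR-101a-3p ran from -5.35 to -4.03.

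The miR-101b-5p value in hypothalamus inputs was -0.069 with total count, -1.31 with no filter and -0.95 with mouse as a replicate block. It ran from -1.52 to -1.20 with single libraries left out. With total count, signs turned for miR-214-3p in brown fat IP (-0.35), miR-101c (0.53) and miR-26a-5p (0.68) in hypothalamus inputs, miR-144-3p (-0.49), miR-26a-5p (-0.92) and miR-26b-5p (-1.87) in muscle inputs, and miR-98-5p in brown fat (0.50) and liver (-0.47) inputs. The mouse block ended the input calls of miR-98-5p in brown fat (-0.36), miR-144-3p in muscle (1.14) and miR-138-5p in muscle (-0.80), and no other call named here.

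The number of miRNAs called moved by over 1.5 times with total count, to 55 higher in brown fat IP and 29 higher in liver IP, and in the inputs to 230 higher and 78 lower in brown fat, 48 higher in liver, 26 higher and 364 lower in muscle, and 69 lower in hypothalamus. Without a filter it was 181 higher and 220 lower in brown fat IP, 166 lower in liver IP, 245 lower in muscle IP, 132 higher and 259 lower in hypothalamus IP, and 421 higher in hypothalamus inputs. A minimum mean of 10 CPM gave 149 lower in liver, 96 lower in muscle and 120 higher in hypothalamus IP. All libraries in 1 fit gave 121 higher and 208 lower in hypothalamus IP. Apart from scaling and filters, which by construction change the zero point and the miRNAs tested, the cause of these moves was not tested. Depth limits the IPs of muscle and hypothalamus, where a member rests on 0 to 33 counts in a library.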
